A study of Mus musculus with 6 samples.

Results

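Zinc, copper and iron handling was followed through 39 genes of the 56748 in the deposited table, chosen by name. They comprised every row whose symbol began with Slc30a or Slc39a and a number, together with Slc31a1, Slc31a2, Slc40a1, Slc11a2, Atp7a, Atp7b, Tfrc, Fth1, Ftl1, Cp, Heph, Mt1, Mt2 and Mt4. The pattern also took in Slc39a1-ps, a pseudogene copy of Slc39a1. No measured value entered the choice, although results from these libraries were known when it was made.

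The libraries came from basal cells, the stem cells of the tracheal epithelium, taken from wild-type mice and sequenced after 4 days in culture. In 3 libraries the cells had been given UK-5099, which blocks the mitochondrial pyruvate carrier. In the other 3 they had been given Y-27632, a kinase inhibitor, with A8301 and DMH-1, which block the type I receptors of TGF-beta and of BMP. No group lacked inhibitors, so a difference does not say which culture moved, and the labels do not state whether Y-27632 was also present with UK-5099, nor whether replicates came from different animals or dishes. The p-values below therefore rest on a spread among libraries that may be technical.

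Zinc leaves the cytosol through the SLC30 (ZnT) carriers, either out of the cell or into vesicles and organelles, and enters it through the SLC39 (ZIP) carriers. Metallothioneins are small cysteine-rich proteins that bind zinc and copper, and their genes are switched on by the zinc-sensing factor MTF1. Iron arrives on transferrin through the transferrin receptor, is carried across endosomal membranes by DMT1 (Slc11a2), is stored inside shells of ferritin heavy and light chains, and leaves through ferroportin (Slc40a1), helped by the copper-containing oxidases ceruloplasmin (Cp) and hephaestin. Iron regulatory proteins bind hairpins called iron response elements in several of these mRNAs when iron is scarce, which blocks translation of the ferritins and ferroportin and stabilises the mRNA of the transferrin receptor.

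Because these hairpins join the iron genes into 1 known circuit, they are shown before the values. A search of the untranslated regions in GENCODE M21 transcripts (annotation of build GRCm38, sequence only) asked for a C, 5 stem bases, the loop CAGTG followed by A, C or T, and 5 bases that pair with the stem, G-T pairs included, on the transcript strand. It found 7 elements in 4 of the 39 genes, once matches in genes of 1 chromosome had been set aside. Any member on that chromosome was therefore not covered. Each is printed 5′ to 3′ over 28 bases, with the 6-base loop in capitals.
Fth1, 5′ UTR (chromosome 19): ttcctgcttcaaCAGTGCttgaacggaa
Ftl1, 5′ UTR (chromosome 7): gtcttgcttcaaCAGTGTttgaacggaa
Slc40a1, 5′ UTR (chromosome 1): caacttcagctaCAGTGTtagctaagtt
Tfrc, 3′ UTR, element 1 (chromosome 16): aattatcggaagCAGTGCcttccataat
Tfrc, 3′ UTR, element 2: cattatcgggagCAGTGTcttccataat
Tfrc, 3′ UTR, element 3: ctatatcggagaCAGTGAtctccatatg
Tfrc, 3′ UTR, element 4: aattatcgggaaCAGTGTttcccataat
Of 20831 protein-coding genes with a 5′ UTR in that annotation, 21 (0.101%) held such a match there, and of 20914 with a 3′ UTR, 98 (0.469%) did. These shares were counted over every chromosome. The Ftl1 site lay at bases 78 to 105 of a 968-base transcript and the Slc40a1 site at bases 90 to 117 of 3370. The Fth1 site lay farther from the start, at bases 658 to 685 of a 1494-base transcript whose annotated 5′ UTR has 795 bases. The 4 Tfrc sites lay between bases 3315 and 3833 of a transcript of 4890 bases. No Slc11a2 transcript in that annotation met the strict pattern. These matches describe the transcripts and are not measurements of binding.

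Each of the 6 libraries held between 19909589 and 27037795 gene reads. Values are normalized counts, that is, reads divided by the authors' size factor of each library, so that 1 read was worth between 0.894 and 1.22 of them. A gene was tested if its mean over the libraries reached 10 normalized counts, which 15704 genes did, and it is called changed where limma's p, after Benjamini-Hochberg adjustment over all genes tested, is under 0.05. The basal cell genes Krt5, Krt14, Krt15 and Trp63 were abundant, none of them below 3142.5 normalized counts in any library. The summed level of 8 basal genes nevertheless ran from 260910.5 to 282036 normalized counts with UK-5099 and from 120419 to 132478 with the 3 inhibitors. Most of that gap came from Krt5 (means of 118708 and 39445) and Krt14 (70521 and 12457). Of the 8, 6 were higher with UK-5099, Krt15 was not called, and Ngfr was 4.59-fold lower. A summed level of 6 secretory cell genes ran from 6813 to 8580 normalized counts with UK-5099 and from 46156 to 48736 with the 3 inhibitors, and the tested members Scgb1a1, Cyp2f2 and Cbr2 were lower with UK-5099. Muc5b, also tested, reached the low filter only through the 3-inhibitor group, so the filter already required some difference. The X-linked Xist (1.70-fold higher with UK-5099) and the Y-linked Ddx3y (1.76-fold lower) also differed between the groups. Both were read in every library, Xist at 24276 ± 1528 and 14246 ± 129 normalized counts and Ddx3y at 422 ± 13.0 and 745 ± 34.6 (SD). Whether the groups held different shares of male and female cells was not tested. Such a difference could not be told apart from that of the inhibitors. Fewer cells of a type and less RNA per cell cannot be told apart in these bulk libraries, and the part of these shifts in the metal genes was not tested.

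Of the 39 genes, 32 passed the low filter and 7 did not. With UK-5099 6 were higher (27.2% of all genes tested were), 14 were lower (26.6% of all genes tested) and 12 were not called. Called genes made up 62.5% of the 32, against 53.8% of all genes tested. The libraries of the groups did not overlap for 24 of the 32 genes. The same held for 9543 (60.8%) of all genes tested, so a lack of overlap was common in this comparison. A change of at least 1.5-fold was called for 7 (21.9%), close to the 21.7% among all genes. Of these 7 members 6 were lower and 1 higher. Among all genes tested, 11.2% were called lower and 10.5% higher by at least 1.5-fold. The median log2 fold change was -0.11 for the 32 genes and -0.00049 for all genes tested. The 7 changes of 1.5-fold or more were those of Cp, Slc39a4, Atp7b, Slc40a1, Slc39a8 and Slc30a1, all lower, and of Mt4, which was higher. Mt4 reached the low filter only through the UK-5099 group. When each library was centred on its median gene, 3 were called higher and 19 lower, while all genes tested moved from 4275 higher and 4174 lower to 3375 and 5261. Leaving out UK-5099 replicate 1 also left 3 higher, with 14 lower, while all genes tested then gave 3701 higher and 3715 lower.

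**Figure D1:**
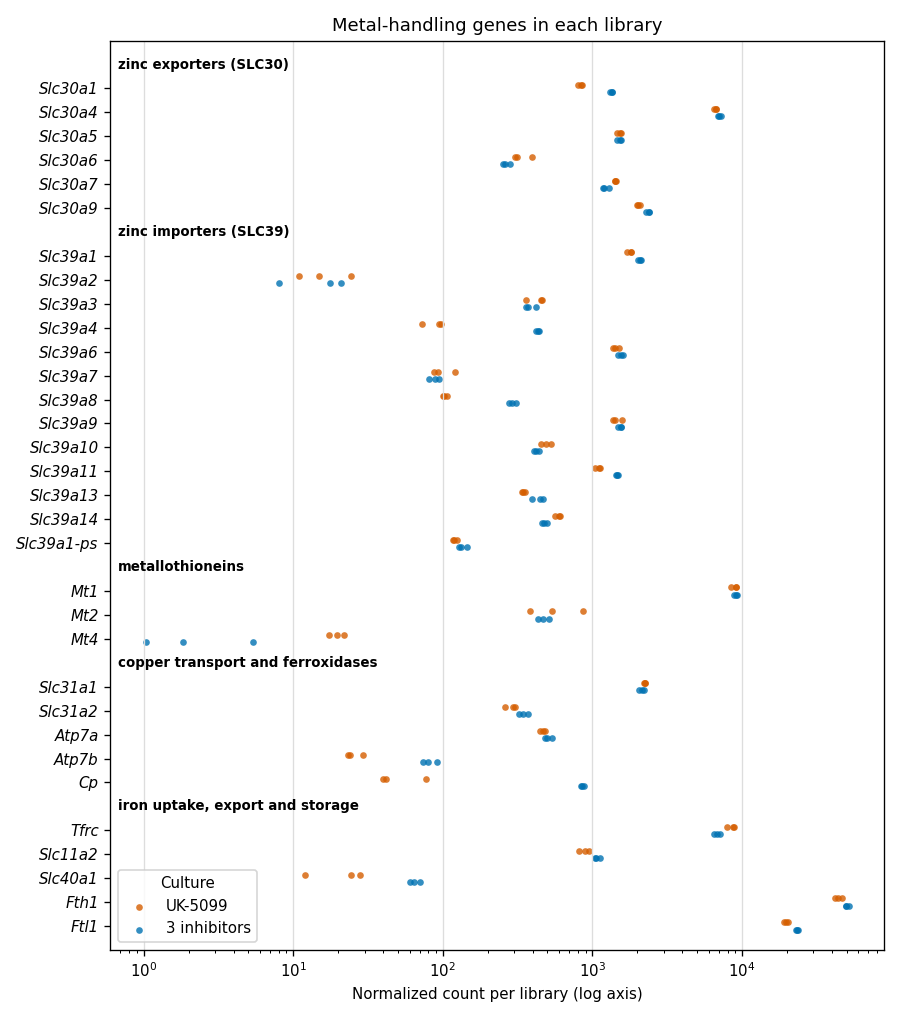
Normalized counts of the 32 tested metal-handling genes (log axis), 1 point per library, 3 libraries with UK-5099 in orange and 3 with the 3 inhibitors in blue. Cp, Slc39a4, Slc39a8, Atp7b and Slc40a1 show a clear gap between the groups, while Mt1 and Slc30a5 lie on top of each other.

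Levels spanned a wide range. Per kilobase of the longest principal transcript, Fth1 stood first in both groups, at 29509 ± 1594 normalized counts per kilobase with UK-5099 against 33554 ± 854 in the other group (n = 3 each, SD). Ftl1 followed at 20323 ± 506 and 24047 ± 262, and Mt1 at 16155 ± 778 and 16593 ± 375. Tfrc, at rank 4 in both groups, was at 1734 ± 98.8 and 1395 ± 56.6 normalized counts per kilobase. The vesicular zinc carrier Slc30a4 came next, at 1220.3 ± 19.8 and 1298 ± 31.8. With UK-5099 its level overlapped within the SD with that of Mt2, at 1162 ± 487. Cp held rank 16 with the 3 inhibitors (213 ± 4.08 normalized counts per kilobase) and rank 29 with UK-5099 (13.1 ± 5.17). These levels rest on annotated lengths, and the transcripts used in these cells may be shorter or longer.

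All 5 iron genes were called, 4 lower and 1 higher, where 53.8% of all genes tested were called, and 4 of the 5 differences were under 1.5-fold. Tfrc, the receptor that takes up transferrin-bound iron, stood at 8824, 8690.2 and 7929 normalized counts in UK-5099 replicates 1 to 3. It stood at 6832, 7095 and 6541 with the 3 inhibitors. Every UK-5099 library lay above every 3-inhibitor library, and the log2 fold change was 0.31 ± 0.050 (SE; adjusted p = 0.000250), or 1.24-fold. Slc11a2, which moves ferrous iron out of endosomes, went the other way. Its normalized counts were 951, 812 and 893 with UK-5099 and 1119, 1061 and 1039.6 with the 3 inhibitors, without overlap. The difference was 1.21-fold (log2 fold change -0.28 ± 0.065, adjusted p = 0.00325).

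Ferritin mRNAs, the most abundant of the set, were slightly lower with UK-5099. Fth1, the heavy chain with the iron-oxidising site, stood at 44019, 41739.7 and 46501 normalized counts with UK-5099 and at 51594, 49536 and 49258 with the 3 inhibitors. The highest UK-5099 library stayed below the lowest of the other group, but the gap was small, and the log2 fold change was -0.19 ± 0.051 (adjusted p = 0.00913). Over all alternatives the adjusted p ran from 0.000129 to 0.0516, the last without 3-inhibitor replicate 1, where the call was lost. Ftl1, the light chain that aids mineral formation, stood at 19702, 19169 and 20148 normalized counts with UK-5099 and 23013, 23518 and 23302 with the 3 inhibitors. These groups were well apart for their spread (log2 fold change -0.24 ± 0.040, adjusted p = 0.000314). The ratio of Fth1 to Ftl1 normalized counts was 2.24 ± 0.065 with UK-5099 against 2.15 ± 0.076 in the other group (n = 3 each, SD), so the ratios overlapped.

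Both ferritin genes have near-identical pseudogenes that could take or lend reads, which leaves their levels uncertain. Ftl1-ps1 was listed at 1141 ± 298 and 1443 ± 93.0 normalized counts, Fth1-ps at 75.1 ± 20.9 and 114 ± 29.1, and Ftl1-ps2 at 35.5 ± 16 and 73.0 ± 30.2 (UK-5099 and 3 inhibitors, SD, n = 3). All of them were far below their parent genes. Their adjusted p ran from 0.0358 to 0.0447, but in each the libraries of the groups overlapped, and these calls were not recomputed under the alternatives.

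Slc40a1, the only known iron exporter of mammalian cells, was scarce in these cultures. It stood at 24.4, 12.1 and 28.0 normalized counts with UK-5099 and 70.1, 60.8 and 63.9 with the 3 inhibitors. The groups were separate, with the widest spread in the UK-5099 libraries, and the gene was 3.09-fold lower with UK-5099 (log2 fold change -1.63 ± 0.29, adjusted p = 0.000562). Macrophages are rich in this exporter. Of 7 leukocyte markers, Adgre1 was at 0 in all 6 libraries, Ptprc averaged 0.339 and 0.641 normalized counts, and Csf1r was at 0 with UK-5099 and averaged 6.98 ± 4.47 with the 3 inhibitors. Cd14 was 3.51-fold lower with UK-5099 (107 ± 1.41 against 379.7 ± 26.4 normalized counts, adjusted p = 4.76e-08), Lyz2 averaged 0.309 and 13.7, and Cd68 was not called (565 ± 112 and 479 ± 21.2). The summed level of the 7 ran from 595 to 803 normalized counts with UK-5099 and from 844 to 926 with the 3 inhibitors, most of it from Cd68 and Cd14. The part of such cells in the Slc40a1 difference was not tested.

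The 4 genes with printed hairpins are too few to set against the 53.8% of all genes that were called. Tfrc, with 4 matches to the strict pattern in its 3′ UTR, was higher with UK-5099. Fth1, Ftl1 and Slc40a1, each with 1 match in its 5′ UTR, were lower, Fth1 only while 3-inhibitor replicate 1 was kept (adjusted p = 0.0516 without it). Elements that miss the pattern would not have been found. The 5′ UTR elements act on translation, as given above, which mRNA counts do not measure. Whether the hairpins had a part in any of these differences was not tested. Aco1 and Ireb2, which encode the iron regulatory proteins that bind these hairpins, were not members and are given with the wider list.

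Of the 6 copper transport and ferroxidase genes, 5 were tested, of which 3 were lower and 2 not called, where 53.8% of all genes tested were called. Slc31a1, the high-affinity copper importer CTR1, stood at 2246, 2227 and 2235 normalized counts with UK-5099 and 2202, 2144 and 2037 with the 3 inhibitors. The groups did not overlap but lay close together, and the gene was not called (log2 fold change 0.073 ± 0.044, adjusted p = 0.190). It passed after upper-quartile rescaling (adjusted p = 0.0462, in a range from 0.0462 to 0.770). Its relative Slc31a2, which sits on endosomes, was 1.21-fold lower, with group means of 286 ± 21.6 and 346 ± 25.1 (n = 3, SD; log2 fold change -0.27 ± 0.091, adjusted p = 0.0239). It was lost when UK-5099 replicate 2 (adjusted p = 0.0795), 3-inhibitor replicate 1 (0.0611) or 3-inhibitor replicate 3 (0.109) was left out, and the alternatives spanned 0.00503 to 0.109.

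The copper-pumping ATPases differed from each other. Atp7a, which loads copper enzymes in the secretory pathway of most tissues, stood at 479.6, 465 and 448 normalized counts with UK-5099 and 495, 541 and 481 with the 3 inhibitors. The nearest libraries of the groups were almost equal, and it was not called (log2 fold change -0.12 ± 0.070, adjusted p = 0.169), though it passed with median centring (0.0243, in a range from 0.0243 to 0.485). Atp7b, the pump best known from liver, was much scarcer, at 23.4, 24.1 and 29.2 normalized counts with UK-5099 and 79.4, 91.2 and 74.0 with the 3 inhibitors. Each UK-5099 library held less than any 3-inhibitor library by a wide margin, and the gene was 3.11-fold lower (log2 fold change -1.64 ± 0.19, adjusted p = 2.46e-05).

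Cp showed the largest difference of the 32 tested genes. It encodes ceruloplasmin, the copper-carrying ferroxidase that receives its copper from the ATP7 pumps and oxidises iron leaving cells. It stood at 39.6, 41.8 and 76.7 normalized counts with UK-5099 and at 875, 858 and 842 with the 3 inhibitors. UK-5099 replicate 3 was the highest of its group, yet all 3 were far below the others (log2 fold change -4.07 ± 0.20, 16.7-fold lower, adjusted p = 2.53e-08). The airway lining is a known source of ceruloplasmin. The secretory marker sum given above, most of it from Cbr2, differed in the same direction as Cp. The part of that shift in the result was not tested. Heph, the membrane-bound ferroxidase, was near 0 in both groups (0.715 ± 0.636 and 2.20 ± 1.39 normalized counts).

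**Figure D2:**
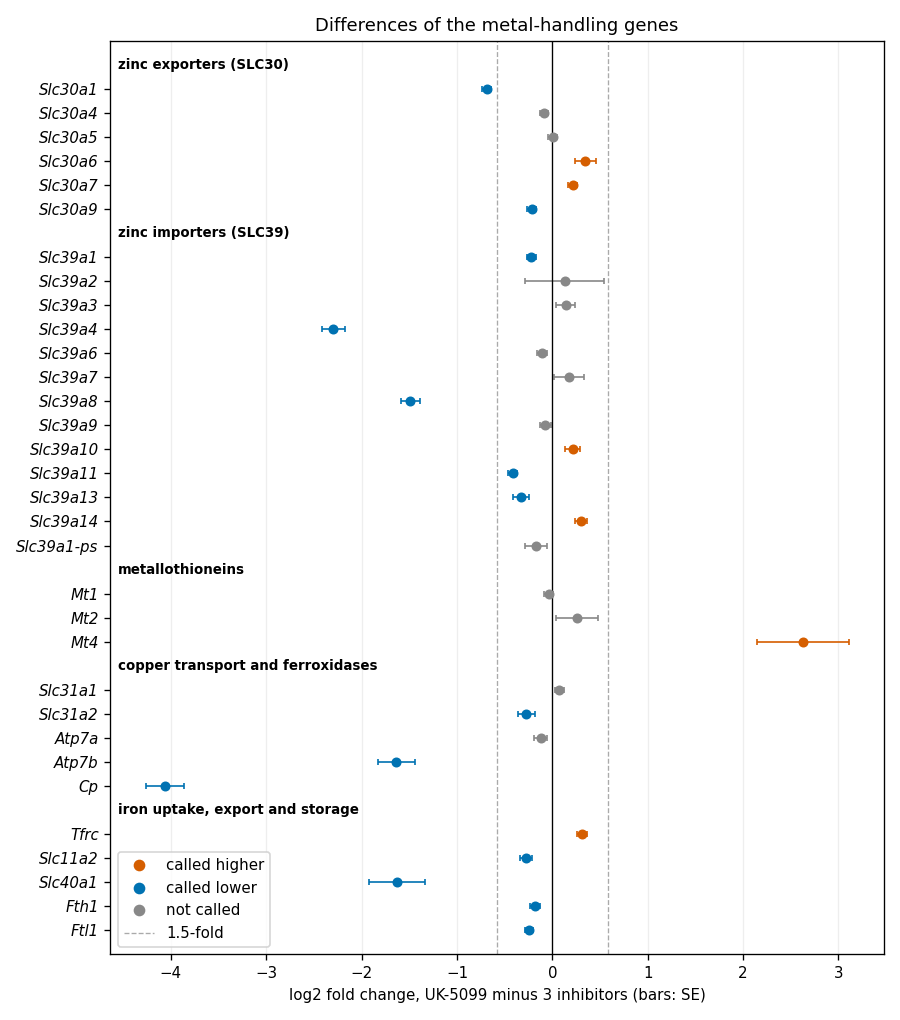
Log2 fold changes (UK-5099 minus 3 inhibitors) of the 32 tested metal-handling genes with their standard errors, coloured by call, with dashed lines at 1.5-fold. The 6 called points past 1.5-fold lie left of the lower dashed line, Cp farthest at -4.07, and Mt4 alone lies right of the upper one at 2.63.

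Zinc importers were mostly little changed, apart from Slc39a4 and Slc39a8. Of 15 genes, the pseudogene Slc39a1-ps counted among them, 13 were tested. Of these 2 were higher, 5 lower and 6, Slc39a1-ps included, not called. With the pseudogene counted, 53.8% were called, the same share as among all genes tested. Slc39a4, which encodes ZIP4, the importer whose loss causes the zinc deficiency acrodermatitis enteropathica in humans, stood at 97.5, 72.4 and 93.8 normalized counts with UK-5099 and at 421, 442 and 435 with the 3 inhibitors. No UK-5099 library came near a 3-inhibitor library, and the gene was 4.92-fold lower (log2 fold change -2.30 ± 0.12, adjusted p = 4.55e-08). Slc39a8, whose product ZIP8 carries zinc, manganese and iron, stood at 107, 102 and 101 normalized counts with UK-5099 and 276, 292 and 308 with the 3 inhibitors. Its UK-5099 values were nearly equal to each other, and it was 2.81-fold lower (log2 fold change -1.49 ± 0.10, adjusted p = 3.03e-07).

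Smaller falls were called for Slc39a11 (log2 fold change -0.42 ± 0.049, adjusted p = 2.37e-05), Slc39a13 (-0.33 ± 0.081, 0.00482) and Slc39a1 (-0.22 ± 0.046, 0.00153). ZIP13 works in the secretory pathway and ZIP1 at the cell surface. Reads of Slc39a1 can be shared with Slc39a1-ps, which was listed at 120.2 ± 3.54 and 136 ± 9.30 normalized counts and not called (-0.17 ± 0.12, adjusted p = 0.248). The 2 importers that were higher were Slc39a14 and Slc39a10. Slc39a14, the closest relative of ZIP8 and likewise a carrier of zinc, manganese and iron, thus differed in the opposite direction to it, at 588 ± 25.4 against 477 ± 17.4 normalized counts (0.30 ± 0.066, adjusted p = 0.00218).

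Slc39a10, a cell-surface importer whose mouse gene is repressed by MTF1, stood at 528, 455 and 486 normalized counts with UK-5099 and 438, 419 and 408 with the 3 inhibitors. The groups were separate by a narrow gap (log2 fold change 0.21 ± 0.075, adjusted p = 0.0325). The gene was no longer called once UK-5099 replicate 1 (adjusted p = 0.137), 3-inhibitor replicate 2 (0.0859) or 3-inhibitor replicate 3 (0.110) was dropped. Median centring (0.172) and limma without its trend (0.0529) had the same effect, and the lowest of the alternatives was 0.0134.

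Among importers that were not called, Slc39a6 (log2 fold change -0.11 ± 0.051) and Slc39a9 (-0.072 ± 0.057) passed without UK-5099 replicate 3 (adjusted p = 0.0213 and 0.0224, with ranges from 0.00700 to 0.290 and from 0.0224 to 0.675). Slc39a3 (0.14 ± 0.10) passed without UK-5099 replicate 2 (adjusted p = 0.0253; highest 0.713). Slc39a7, which releases zinc from the endoplasmic reticulum, stood at 100.3 ± 17.8 and 88.0 ± 7.31 normalized counts (0.17 ± 0.16, adjusted p = 0.385). Slc39a2 was scarce, at 16.7 ± 6.91 and 15.5 ± 6.71. Slc39a5 was below the filter at 5.44 ± 1.73 and 7.30 ± 1.90, and Slc39a12 was at 0 in every library.

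Of the zinc exporters, 6 of 10 were tested, with 2 higher, 2 lower and 2 not called (66.7% called, against 53.8% of all genes tested). Slc30a1, the plasma membrane exporter ZnT1 and a target of MTF1, stood at 833, 805 and 850.1 normalized counts with UK-5099 and 1309, 1358 and 1342 with the 3 inhibitors. The libraries formed tight, separate groups, and the gene was 1.61-fold lower (log2 fold change -0.69 ± 0.049, adjusted p = 4.57e-07). Slc30a9, a mitochondrial carrier, was 1.16-fold lower (-0.22 ± 0.044, adjusted p = 0.00139). Slc30a4, the most abundant exporter per kilobase, stood at 6660.2 ± 108 and 7087 ± 174 normalized counts and was not called (-0.089 ± 0.039, adjusted p = 0.0707). It passed without UK-5099 replicate 3 (0.0365) and with median centring (0.00285), in a range from 0.00285 to 0.250.

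The carriers that fill the early secretory pathway with zinc are ZnT5, ZnT6 and ZnT7, of which ZnT5 and ZnT6 act as a pair. Slc30a7 was higher, at 1421 ± 10.8 against 1227 ± 58.1 normalized counts (log2 fold change 0.21 ± 0.050, adjusted p = 0.00349, in a range up to 0.0567 with median centring). Slc30a6 was higher, at 338 ± 51.3 against 265 ± 15.4 (0.34 ± 0.11, adjusted p = 0.0187). That did not hold when UK-5099 replicate 1 (adjusted p = 0.0860), 3-inhibitor replicate 2 (0.0721) or 3-inhibitor replicate 3 (0.0586) was dropped, nor with median centring (0.0597) or limma without its trend (0.0568). The lowest of the alternatives was 0.00347. Slc30a5 stood at 1521 ± 46.7 and 1515 ± 49.6 normalized counts (0.0055 ± 0.048, adjusted p = 0.933). Slc30a2 (2.62 ± 2.54 and 5.75 ± 2.79) and Slc30a3 (0 and 0.344 ± 0.595) were below the filter. Slc30a8 and Slc30a10 had no read in any library. For 1 library taken alone this allows up to 3 reads by counting error, and for all libraries together fewer per library.

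The main metallothioneins were not called. Mt1 stood at 9177, 9049 and 8382 normalized counts with UK-5099 and 9293, 9149 and 8887 with the 3 inhibitors. The ranges overlapped, UK-5099 replicate 3 being the lowest library (log2 fold change -0.039 ± 0.045, adjusted p = 0.487). It passed only with median centring (adjusted p = 0.0239, in a range from 0.0239 to 0.987). Mt2 stood at 534, 867 and 379.99 normalized counts with UK-5099 and 429.8, 513 and 466 with the 3 inhibitors. The UK-5099 libraries enclosed the other group, with replicate 2 highest and replicate 3 lowest (0.26 ± 0.22, adjusted p = 0.348). Without UK-5099 replicate 3 Mt2 passed with a log2 fold change of 0.54 (adjusted p = 0.00405), and without replicate 2 the value was -0.055 (adjusted p = 0.732). Mt1 reads outnumbered Mt2 reads by 16.6 ± 5.83 to 1 with UK-5099 and 19.5 ± 1.93 to 1 with the 3 inhibitors (SD, n = 3). The coding sequences of these neighbours are alike, so reads could be divided between them unevenly.

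Mt4, a metallothionein of stratified squamous epithelium, was the only called member of its family. It stood at 17.3, 19.5 and 21.9 normalized counts with UK-5099 and at 1.03, 5.36 and 1.83 with the 3 inhibitors, where 1 normalized count is about 1 read. Every UK-5099 library was above the others (log2 fold change 2.63 ± 0.48, 6.17-fold on the scale of the count plus 1, adjusted p = 0.000673). It was the 1 tested member that reached the low filter through a single group, so its presence among the tested genes already required a difference.

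**Figure D3:**
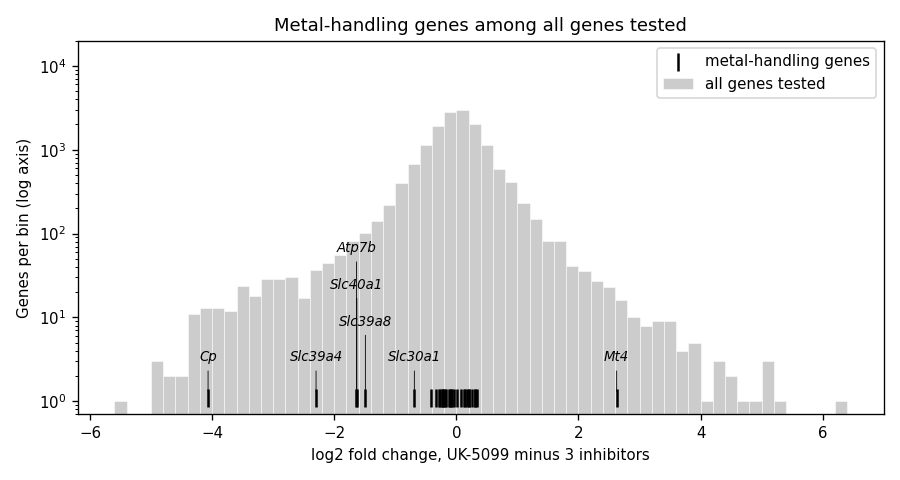
Histogram of log2 fold changes (UK-5099 minus 3 inhibitors) for 15704 tested genes, with the number of genes per bin on a log axis, and ticks for the 32 metal-handling genes. Most ticks sit near 0, and the 7 named genes lie at least 1.5-fold away from it.

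A wider list of 61 further genes of zinc, copper, iron and heme gave 43 tested, of which 10 were higher and 11 lower with UK-5099. That is 48.8%, against 53.8% of all genes tested. Changes of at least 1.5-fold were called for 8 (18.6%, against 21.7%), 2 of them higher and 6 lower. Among all genes tested, 10.5% were called higher and 11.2% lower by that much. Median centring, which moved all genes in the same direction as given above, turned the split to 8 higher and 19 lower.

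Iron sensors were close between the groups. Aco1, which in its form without an iron-sulfur cluster is iron regulatory protein 1, stood at 2160 ± 70.7 and 2525 ± 38.8 normalized counts (log2 fold change -0.23 ± 0.043, adjusted p = 0.000883). Ireb2, iron regulatory protein 2, stood at 3052 ± 118 and 3213 ± 37.1 and was not called (-0.075 ± 0.043, adjusted p = 0.162), but passed with median centring (0.00705, in a range up to 0.436). Fbxl5, the ubiquitin ligase subunit that removes iron regulatory proteins when iron is ample, was not called (0.065 ± 0.044, adjusted p = 0.243). Ncoa4, the receptor that takes ferritin to the lysosome, was slightly lower (log2 fold change -0.14 ± 0.044, adjusted p = 0.0209). It was lost without 3-inhibitor replicate 1 (0.0585), 2 (0.0644) or 3 (0.0635), with upper-quartile rescaling (0.0727), limma without its trend (0.0758) and limma-voom (0.0560), and the lowest of the alternatives was 0.000988. Trf, which encodes transferrin itself, was at 0 with UK-5099 and 0.648 ± 0.564 normalized counts with the 3 inhibitors. Steap4, a metalloreductase, was at 0.309 ± 0.536 and 4.17 ± 1.81.

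Secreted iron-binding proteins of airway defence showed the largest fall of the wider list. Lcn2, lipocalin 2, which captures bacterial siderophores, stood at 26.4, 52.0 and 35.3 normalized counts with UK-5099 and 336, 306 and 283 with the 3 inhibitors. The groups were far apart, with an 8.23-fold difference (log2 fold change -3.04 ± 0.21, adjusted p = 3.18e-07). Ltf, lactoferrin, stood at 3069, 2674 and 3919 normalized counts with UK-5099 and 8978, 9044 and 8862 with the 3 inhibitors. All UK-5099 libraries lay below, with a wider spread among themselves (-1.49 ± 0.10, 2.82-fold lower, adjusted p = 3.24e-07). Both are known products of the airway lining. The secretory marker sum, most of it from Cbr2, differed in the same direction, a shift whose part in these results was not tested.

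Heme genes held both large rises of the wider list. Slc48a1, the heme transporter HRG1 that brings heme out of lysosomes, stood at 2789.9, 2517 and 2716 normalized counts with UK-5099 and 1152, 1180.5 and 1182 with the 3 inhibitors. Every UK-5099 library was far above the others, and the gene was 2.28-fold higher (log2 fold change 1.19 ± 0.049, adjusted p = 6.45e-09). Blvrb, biliverdin reductase B, was 2.25-fold higher, at 599.9 ± 7.30 against 266 ± 13.1 normalized counts (1.17 ± 0.071, adjusted p = 1.17e-07). Hmox1, heme oxygenase 1, which frees iron from heme, was slightly higher (0.14 ± 0.041, adjusted p = 0.0109), a call that ended with median centring (0.289) and with limma without its trend (0.0532), the lowest of the alternatives being 0.00190. Alas1, the first enzyme of heme synthesis, was 1.52-fold lower, at 1421 ± 134 against 2148 ± 17.0 (-0.60 ± 0.063, adjusted p = 9.74e-06). Slc25a37, mitoferrin 1, which carries iron into mitochondria, was 1.17-fold higher (0.22 ± 0.048, adjusted p = 0.00226).

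Among copper enzymes and chaperones the lysyl oxidase relatives Loxl2 and Loxl4, copper-dependent cross-linkers of matrix proteins, were lower. Loxl2 stood at 37.6, 36.2 and 63.3 normalized counts with UK-5099 and 150.5, 132 and 148 with the 3 inhibitors. The groups were separate and the difference was 3.19-fold (log2 fold change -1.68 ± 0.21, adjusted p = 3.65e-05). Loxl4 stood at 1561 ± 14.3 and 2931 ± 113 normalized counts (-0.91 ± 0.044, adjusted p = 2.27e-08). Atox1, the chaperone that hands copper to the ATP7 pumps, was 1.23-fold higher (0.29 ± 0.067, adjusted p = 0.00313). Ccs, which loads copper into superoxide dismutase 1, was not called (0.19 ± 0.10, adjusted p = 0.125), but passed without 3-inhibitor replicate 3 (0.0354, in a range up to 0.405).

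On the zinc side, Gpr39, a receptor for extracellular zinc, was 2.01-fold lower, at 31.5 ± 7.58 against 63.4 ± 3.67 normalized counts (log2 fold change -1.01 ± 0.21, adjusted p = 0.00177). Mtf1, the zinc-sensing transcription factor, was 1.11-fold lower at 709 ± 29.3 against 789 ± 12 (-0.16 ± 0.056, adjusted p = 0.0358). This call was fragile: it ended without UK-5099 replicate 1 (0.121) or 2 (0.0706), and without 3-inhibitor replicate 1 (0.102), 2 (0.0975) or 3 (0.0686). Upper-quartile rescaling (0.0575), testing of all genes (0.0711) and the replicate number as a block (0.0508) ended it too, and the lowest of the alternatives was 0.00327. Of the genes known to answer to this factor, Slc30a1 was lower, Slc39a10 was higher with the limits given above, and Mt1 and Mt2 were not called.

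**Figure D4:**
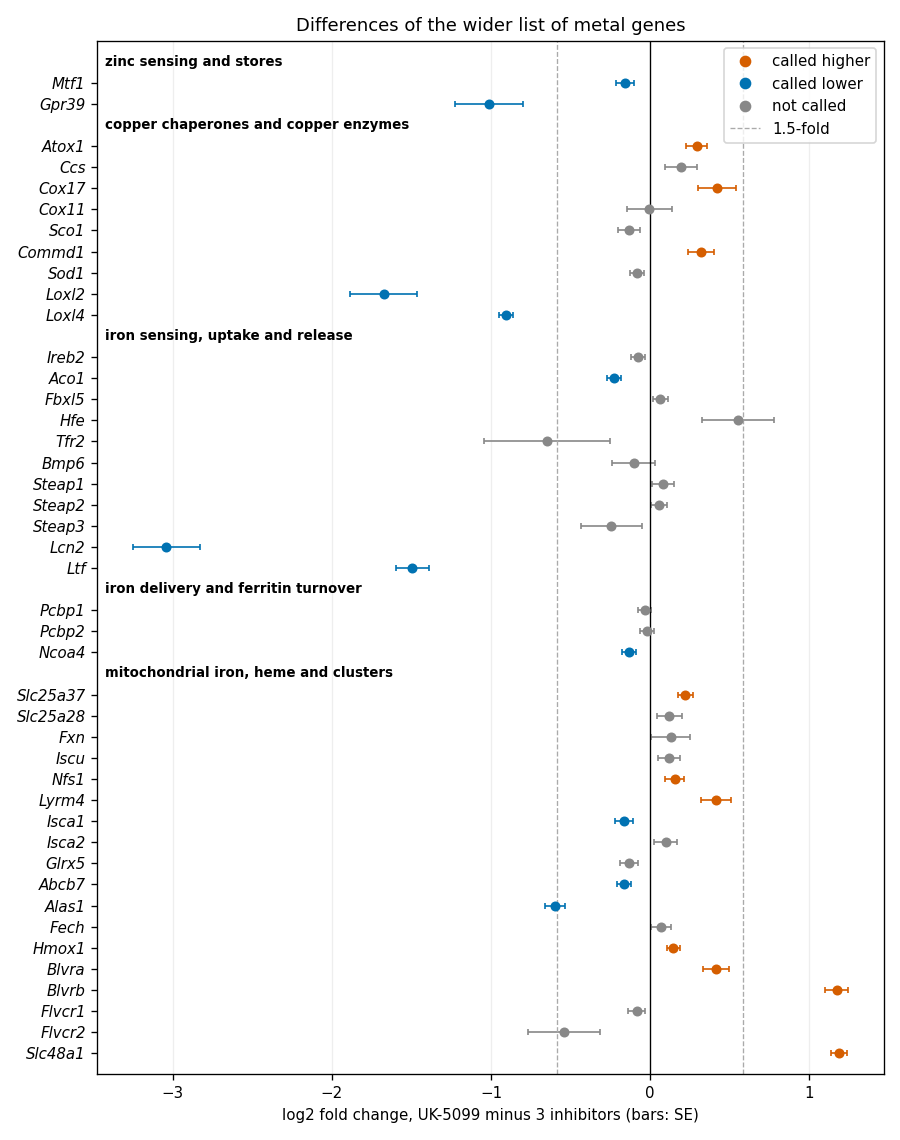
Log2 fold changes (UK-5099 minus 3 inhibitors) with standard errors for the 43 tested genes of the wider list, coloured by call, with dashed lines at 1.5-fold. Slc48a1 at 1.19 and Blvrb at 1.17 stand apart on the right, and Lcn2 at -3.04, Loxl2 at -1.68 and Ltf at -1.49 on the left.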

How the data were processed

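The authors deposited 1 table of log2 values per gene, in which a text mark stands for a count of 0. They are read counts divided by a size factor, a unit other than plain counts (checked from the values). HISAT2 2.1.0, DESeq2 1.36.0 and build GRCm39 are named in the submitters' processing notes without roles, while for the counting program and gene models the entry is: not given in the sources used here. Values were raised from log2. Of 57107 entries, 359 repeated an identifier. Division by the smallest step of each library gave reads: 99.9875% to 99.992% of its nonzero values came within 0.02 of whole ones.

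After adding 1 and taking log2 again, limma 3.58.1 (R 4.3.3) compared the groups two-sided with lmFit and eBayes (trend on, no covariate). A positive log2 fold change means higher with UK-5099 and carries the standard error of the fit, and other errors are SD over 3 libraries. The steps were also run on simulated counts with far fewer changed genes and independent libraries. That run does not show how often calls here are false. Transcript lengths came from GENCODE M21. The members, the wider list and the alternatives were chosen with earlier results of these data known. Full values are given for called members changed at least 1.5-fold and for a set of central genes, and likewise in the wider list. Same-numbered libraries did not deviate together from their group means (correlations -0.017, 0.12 and -0.089), so the replicate numbers were not taken as pairs. Scripts used Python 3.11.15, pandas 2.3.3, numpy 2.4.6 and matplotlib 3.10.9.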

Additional observations from a re-analysis of the deposited data

How the results depend on the processing

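Alternatives were pseudocounts of 0.5 and 5, no low filter, a minimum mean of 50, upper-quartile rescaling, median centring, limma without the trend or robust, limma-voom with TMM factors on recovered reads, a replicate block, a threshold of 0.01 and each library left out. No called metal gene named here changed direction in any of them. Of 20 called members, 3 higher (Slc39a14, Mt4 and Tfrc) and 12 lower were called in every alternative that tested them. Mt4 reached the low filter only through the UK-5099 group, so its place among these carries no weight. The share of all called genes that kept their call in every alternative was not computed. Neither these counts nor their split by direction can therefore be read as particular to the metal genes. With median centring, members called higher fell from 6 to 3 and the wider list called lower rose from 11 to 19. When a library was left out, members called higher ranged from 3 to 6 and members called lower from 12 to 17. Over the same fits, all genes tested ranged from 3701 to 4580 called higher and from 3569 to 4566 called lower. With the replicate block 6 members were higher and 14 lower, and 10 genes of the wider list were lower. Of all genes tested, 4275 were higher and 4148 lower with that block. Direction changed only among genes that were not called. With median centring the log2 fold change was -0.083 for Slc30a5, -0.016 for Slc31a1 and -0.024 for Fbxl5. With a library left out it ran from -0.022 to 0.030 for Slc30a5, from -0.26 to 0.38 for Slc39a2, from -0.065 to 0.00073 for Mt1 and from -0.055 to 0.54 for Mt2. The causes were not tested. Of all called genes, 50.6% were higher, and 39.1% after centring. Members near the filter, such as Mt4 and Slc39a2, rest on few reads.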
